A study of Mus musculus with 23 samples.

Results

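Fosl1, Dusp4, Dusp6 and Ier3 are 4 genes that cells switch on when the kinase ERK is active. They were taken as every probe carrying one of these symbols on Illumina mouse bead arrays, which gave 6 of 24611 probes and 4 of the 9850 genes tested. They had been chosen by their log2 differences from control with cystamine, where they were higher, and with Boc-DON, where some tended to be lower, so those differences are described without a test. The study asked what inhibition of TG2, the tissue transglutaminase, which joins glutamine to lysine residues of proteins, does in striatal cells. It used 2 mouse striatal cell lines, Q111, which carries the disease allele of a Huntington mouse model, and Q7, the wild-type control line. Each line was given cystamine at 250 µM, ZDON at 50 µM or Boc-DON at 50 µM for 12 h, or served as control. ZDON and Boc-DON are irreversible TG2 inhibitors that share the DON group. The prefix names a protecting group, benzyloxycarbonyl for Z and tert-butoxycarbonyl for Boc. The names do not say whether the rest of the molecules is the same. Cystamine is a small disulfide that inhibits TG2 and other enzymes with a reactive thiol. The labels give the controls no vehicle and no time, so effects of vehicle or handling and effects of a compound cannot be told apart. Disease allele and other differences between the lines cannot be told apart either, as each genotype is a single line.

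Total RNA of 23 samples was hybridised, with 3 arrays in each of the 8 groups except Q7 with Boc-DON, which had 2. Replicate numbers follow the BeadChip, so that arrays with the same number shared a chip. The labels do not say whether replicates were separate cultures, and p-values then measure only the spread between these samples. The median intensity per array lay between 107.4 and 165 before normalization. Arrays correlated with the others of their group at 0.987 to 0.996, and the probe named for 18S rRNA stood apart on 1 array, Q7 ZDON replicate 3, at 4531 intensity units against 14245 to 27122 on the others. Only markers with a probe above the array median on at least 2 arrays were kept, which favours levels above the median. Of 12 neural progenitor markers listed, 6 were kept. On average 5 of the 6 lay above the median of the arrays, from Dlx1 at percentile 59.1 to Vim at 99.7. Dlx2 lay below it at 37.6, though the lines differed, with Q111 arrays averaging 7.76 (log2) and Q7 arrays 6.12. Of the 7 kept among 14 listed markers of striatal projection neurons, Foxp1 (percentile 79.5), Pde10a (61.7) and Ppp1r1b (56.4) lay above the median. The other 4, Drd1 (28.3), Drd2 (38.5), Foxp2 (43.9) and Tac1 (45.7), lay below it. Markers of other cell types also lay on both sides, such as Col1a1 (78) and Col3a1 (45.5) of fibroblasts. Among those of astrocytes were Slc1a3 (77.2) and Aldoc (49.6). All levels below are log2 of the normalized intensity, and differences are on the same scale.

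ERK is the last kinase of a cascade that runs from growth factor receptors through Ras, Raf and MEK. Once active, it phosphorylates ETS and AP-1 family transcription factors, and transcription of the genes described here follows. Fosl1 encodes Fra-1, a subunit of AP-1 that joins with Jun proteins, and its transcription and protein stability both depend on lasting ERK activity. Dusp6 and Dusp4 encode phosphatases that remove the activating phosphates from ERK, in the cytoplasm and in the nucleus, and so form a negative feedback on the pathway. Ier3 encodes an early response protein that modulates ERK signalling and cell survival, and its transcription also answers to NF-κB and p53.

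The promoters are shown because the genes' levels moved together and ETS, AP-1 and serum response elements are the usual routes from ERK to transcription. RefSeq windows (GRCm38.p6, 250 bases before to 50 after the start site) were at hand for Dusp6 and Ier3, with none for Fosl1 and Dusp4. Plaur, the urokinase receptor, is printed with them because its level followed that of Fosl1 most closely on these arrays. Capitals mark a match on either strand to TGANTCA (AP-1), TGACGTCA (CRE), CCGGAA (ETS core), TGACNNNGC (core of the antioxidant response element), GGGCGG (GC box) or the CArG box.
Dusp6, chr10:99262981-99263280, plus strand: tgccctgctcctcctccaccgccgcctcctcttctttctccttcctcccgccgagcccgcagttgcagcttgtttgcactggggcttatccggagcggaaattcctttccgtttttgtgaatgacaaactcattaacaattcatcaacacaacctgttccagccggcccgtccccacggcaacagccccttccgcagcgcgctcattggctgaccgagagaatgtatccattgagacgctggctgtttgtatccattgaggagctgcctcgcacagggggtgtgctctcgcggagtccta
Ier3, chr17:35821463-35821762, plus strand: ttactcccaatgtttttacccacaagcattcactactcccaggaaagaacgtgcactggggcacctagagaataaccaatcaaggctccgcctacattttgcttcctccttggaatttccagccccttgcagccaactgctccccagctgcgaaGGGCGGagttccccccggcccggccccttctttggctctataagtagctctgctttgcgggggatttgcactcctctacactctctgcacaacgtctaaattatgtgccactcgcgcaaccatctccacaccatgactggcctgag
Plaur, chr7:24462233-24462532, plus strand: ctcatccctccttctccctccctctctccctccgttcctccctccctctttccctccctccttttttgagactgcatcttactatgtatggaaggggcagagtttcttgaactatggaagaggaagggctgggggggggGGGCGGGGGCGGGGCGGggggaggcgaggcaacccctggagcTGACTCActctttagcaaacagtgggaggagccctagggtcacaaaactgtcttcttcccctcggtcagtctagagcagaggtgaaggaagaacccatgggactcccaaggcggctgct
The Dusp6 window held none of these motifs. The Ier3 window held 1 GC box that begins 96 bases before the start site (−96). The Plaur window held an AP-1 motif at −69 and GC boxes at −111, −105 and −100, of which the last 2 overlap by 1 base. Of 32851 windows of this length, 7.81% held the AP-1 motif, 1.79% the CRE, 14.9% the ETS core, 12.39% the antioxidant response core, 1.63% the CArG box and 35.66% a GC box. A match describes the sequence and is no evidence of binding, and a window without one says nothing of the factor.

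All 4 genes were well above the median of every array. The Fosl1 probe (gene at chr19:5447698-5455938, GRCm38.p6) had intensities of 494.7 to 1688 before normalization and lay between percentiles 72.5 and 87.3 of its arrays. Dusp4 (chr8:34807610-34819894) ranged over 636.6 to 1901.2 and Dusp6 (chr10:99263231-99267489) over 307.1 to 943. Ier3 (chr17:35821713-35822911) ranged over 7042.5 to 17536.8 and stood between percentiles 95.6 and 98.6, among the brightest probes. Dusp4 and Dusp6 each had a further probe, which was dim and exceeded the array median on 21 and 7 arrays, and the brighter probe represents the gene. Since probes differ in brightness, levels are compared between groups and not between genes.

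The Fra-1 gene Fosl1 was highest with cystamine and lowest with Boc-DON in both lines. In Q111 its log2 level was 10.64, 10.57 and 10.82 with cystamine, 9.69, 9.97 and 9.20 with ZDON, 9.05, 9.16 and 8.80 with Boc-DON, and 9.79, 9.65 and 9.54 in controls (replicates 1, 2 and 3). In Q7 it was 10.75, 10.96 and 10.85 with cystamine, 9.65, 9.95 and 9.81 with ZDON, 9.42 and 9.38 with Boc-DON, and 9.66, 10.04 and 9.64 in controls. All 6 cystamine arrays lay above all other arrays. The 5 Boc-DON arrays all lay below every control array, and 1 ZDON array, Q111 replicate 3, fell among them. By group mean the order was Q7 cystamine, Q111 cystamine, Q7 ZDON, Q7 control, Q111 control, Q111 ZDON, Q7 Boc-DON and Q111 Boc-DON. Neighbours in this order overlapped except at 2 steps, a drop of 0.87 below the cystamine groups and one of 0.40 between the Boc-DON groups.

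Dusp4, the nuclear ERK phosphatase, was likewise highest with cystamine and lowest with Boc-DON in both lines. In Q111 its log2 level was 10.74, 10.51 and 10.65 with cystamine, 10.12, 10.08 and 9.54 with ZDON, 9.48, 9.39 and 9.18 with Boc-DON, and 10.12, 10.01 and 9.90 in controls. The Q7 arrays had 10.98, 10.85 and 10.75 with cystamine, 10.40, 10.41 and 9.98 with ZDON, 9.67 and 9.64 with Boc-DON, and 10.35, 10.34 and 10.15 in controls. Within each line the cystamine arrays were the highest and the Boc-DON arrays the lowest, without overlap with controls. The order of means was Q7 cystamine (10.86), Q111 cystamine (10.63), Q7 control (10.28), Q7 ZDON (10.26), Q111 control (10.01), Q111 ZDON (9.91), Q7 Boc-DON (9.65) and Q111 Boc-DON (9.35). Only the cystamine groups, the step below them and the Boc-DON groups did not overlap with their neighbour.

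For Dusp6, the cytoplasmic ERK phosphatase, the log2 level in Q111 was 9.72, 9.87 and 9.70 with cystamine, 9.06, 8.92 and 8.36 with ZDON, 8.35, 8.65 and 8.36 with Boc-DON, and 8.91, 9.22 and 8.59 in controls. Levels in Q7 were 9.97, 9.89 and 9.81 with cystamine, 9.15, 8.995 and 8.81 with ZDON, 8.64 and 8.82 with Boc-DON, and 9.21, 9.20 and 9.12 in controls. The cystamine arrays again stood above all others. Below them the groups overlapped with their neighbours throughout, and Q111 controls spread over 0.315 (SD, n = 3), against 0.0512 in Q7 controls (SD, n = 3). Means descended from 9.89 in Q7 cystamine and 9.76 in Q111 cystamine through Q7 control (9.18), Q7 ZDON (8.98), Q111 control (8.91), Q111 ZDON (8.78) and Q7 Boc-DON (8.73) to 8.45 in Q111 Boc-DON.

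Ier3 was ordered by line as much as by compound. In Q111 its log2 level was 13.47, 13.53 and 13.07 with cystamine, 13.22, 13.35 and 12.59 with ZDON, 13.05, 13.09 and 12.67 with Boc-DON, and 12.99, 12.95 and 12.62 in controls. Q7 arrays had 13.77, 13.80 and 13.40 with cystamine, 13.75, 13.74 and 13.16 with ZDON, 13.31 and 13.25 with Boc-DON, and 13.30, 13.61 and 13.22 in controls. The array on chip 3 was the lowest of its group in all 7 groups that had 3 arrays, which held for 3.45% of genes. The order of means was Q7 cystamine (13.66), Q7 ZDON (13.55), Q7 control (13.38), Q111 cystamine (13.36), Q7 Boc-DON (13.28), Q111 ZDON (13.05), Q111 Boc-DON (12.94) and Q111 control (12.85), and every neighbouring pair overlapped. The chip 3 array was lowest in 6 of 7 groups for Dusp4 and for Dusp6, and in 4 of 7 for Fosl1.

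**Figure D1:**
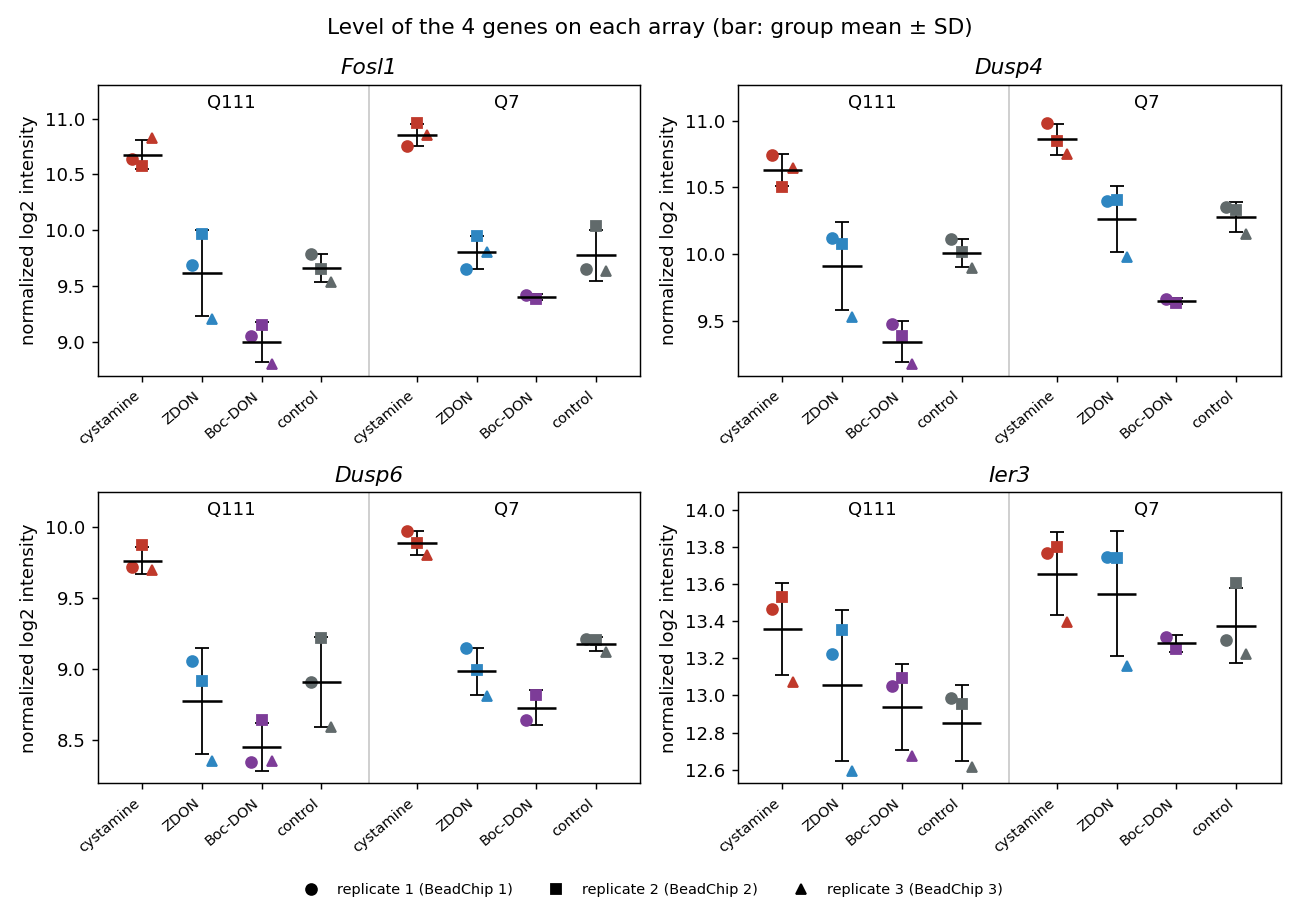
Normalized log2 intensity of each gene on each of the 23 arrays (y axis), by compound within Q111 (left) and Q7 (right). Points are arrays, shaped by BeadChip, with the group mean and SD as bars (2 arrays for Q7 Boc-DON). Cystamine arrays stand above all others for Fosl1, Dusp4 and Dusp6, and the chip 3 array is the lowest in all 7 groups of 3 for Ier3.

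With cystamine, all 4 genes were higher than in controls in both lines. In Q111 the fitted difference was 1.02 (SE 0.16) for Fosl1, 0.85 (SE 0.16) for Dusp6, 0.62 (SE 0.14) for Dusp4 and 0.50 (SE 0.20) for Ier3. These correspond to folds of 2.02, 1.81, 1.54 and 1.42. The groups did not overlap for any of the 4 in Q111, which held in the upward direction for 7.09% of all genes. In Q7 the difference was 1.08 for Fosl1, 0.71 for Dusp6, 0.58 for Dusp4 and 0.28 (SE 0.20) for Ier3. There 3 of the 4 did not overlap, Ier3 being the exception, against 5.53% of all genes. Sorted by size of increase among the 9850 genes, Fosl1 was at place 20 in Q111 and place 10 in Q7, Dusp6 at 31 and 29, Dusp4 at 79 and 54, and Ier3 at 151 and 456. These contrasts chose the genes, so nothing is read from the places or shares.

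Array by array on a shared chip, cystamine minus control ranged from 0.85 to 1.28 for Fosl1 over the 6 pairs of both lines, from 0.65 to 1.11 for Dusp6, from 0.49 to 0.75 for Dusp4 and from 0.17 to 0.58 for Ier3. Every pair was positive for every gene. The dim probe of Dusp6 gave 0.24 in Q111 and 0.42 in Q7, and that of Dusp4 gave 0.25 and 0.45. Scaling each array to a common median moved the median of all genes to −0.11 in Q111 and −0.13 in Q7 with cystamine. Relative to that median, Fosl1 stood at 0.95 in Q111 and 0.98 in Q7, Dusp6 at 0.79 and 0.63, Dusp4 at 0.55 and 0.49, and Ier3 at 0.47 and 0.31.

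Whether the cystamine response differed between the lines was tested as an interaction, a contrast that did not choose the genes, although its arrays did. The response in Q111 minus that in Q7 was −0.06 for Fosl1 (95% confidence interval −0.52 to 0.40), 0.04 for Dusp4 (−0.38 to 0.47), 0.14 for Dusp6 (−0.33 to 0.61) and 0.23 for Ier3 (−0.36 to 0.81). None of the 4 passed, and in this contrast 0% of genes passed in limma without or with the replicate block, with 396 genes at an unadjusted p under 0.05. The intervals leave room for a difference of about the size of the smaller responses.

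Boc-DON went with lower levels of 3 of the 4 genes. In Q111 the difference from controls was −0.66 (SE 0.16) for Fosl1, −0.66 (SE 0.14) for Dusp4, −0.46 (SE 0.16) for Dusp6 and 0.09 (SE 0.20) for Ier3. Boc-DON arrays and controls did not overlap for Fosl1 and Dusp4, against 8.34% of all genes in the downward direction. In Q7 the difference was −0.37 (SE 0.17) for Fosl1, −0.63 (SE 0.16) for Dusp4, −0.45 (SE 0.18) for Dusp6 and −0.10 (SE 0.22) for Ier3. Fosl1, Dusp4 and Dusp6 did not overlap with controls there, against 11.2% of all genes, with 2 Boc-DON arrays. As Q7 with Boc-DON has no array on chip 3, the replicate block moved the estimates, to −0.43, −0.71, −0.53 and −0.24 for Fosl1, Dusp4, Dusp6 and Ier3. Over the 5 pairs on a shared chip, Dusp4 ranged narrowly from −0.72 to −0.63, Fosl1 from −0.74 to −0.23 and Dusp6 from −0.58 to −0.23, all negative. All 5 pairs were negative for 9.7% of all genes. Ier3 ranged from −0.36 to 0.14 and was positive in 4 of 5. The dim probe of Dusp4 gave −0.21 (SE 0.15) in Q111 and 0.13 (SE 0.16) in Q7, and that of Dusp6 gave −0.07 (SE 0.12) and −0.04 (SE 0.14). In Q111 the dim Dusp4 probe came close to overlap, with the highest Boc-DON array at 6.891 and the lowest control at 6.894. Its difference in Q7 had the opposite sign to that of the bright probe.

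With ZDON, at the same dose and time as Boc-DON, none of the 4 genes differed from controls past the threshold. In Q111 its difference from controls was −0.04 for Fosl1 (95% confidence interval −0.37 to 0.28), −0.10 for Dusp4 (−0.40 to 0.20), −0.13 for Dusp6 (−0.46 to 0.20) and 0.20 for Ier3 (−0.21 to 0.61). In Q7 it was 0.03 (−0.30 to 0.35), −0.02 (−0.32 to 0.28), −0.19 (−0.53 to 0.14) and 0.17 (−0.24 to 0.58) in the same order. The limma adjusted p lay between 0.914 and 0.981 in Q111 and was 0.999 for each gene in Q7. The ZDON arrays had no part in choosing the genes, although the controls had. In these contrasts 0% of genes passed in Q111, where 676 had an unadjusted p under 0.05 and 0.264% passed with the replicate block. In Q7 0.0203% passed, and 0.0508% with the block. Dusp6 was lower with ZDON than in controls on 5 of 6 chip-matched pairs, with a median of −0.22, and Ier3 was higher on 4 of 6, with a median of 0.18. The intervals do not exclude changes of these sizes. Leaving out Q111 ZDON replicate 3 turned Fosl1, Dusp4 and Dusp6 in Q111 to 0.17, 0.09 and 0.08 and put Ier3 at 0.44. Leaving out Q7 ZDON replicate 3, the array with the low 18S rRNA probe, put Dusp4 in Q7 at 0.12, Ier3 at 0.37, Dusp6 at −0.11 and Fosl1 at 0.02.

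The 2 DON compounds were set side by side at their matched dose and time, in 2 comparisons, 1 per line. ZDON minus Boc-DON in Q111 was 0.62 (SE 0.16) for Fosl1, 0.56 (SE 0.14) for Dusp4, 0.33 (SE 0.16) for Dusp6 and 0.12 (SE 0.20) for Ier3. The groups did not overlap for Fosl1 and Dusp4, against 5.09% of all genes in the upward direction. In Q7 it was 0.40 (SE 0.17) for Fosl1, 0.61 (SE 0.16) for Dusp4, 0.25 (SE 0.18) for Dusp6 and 0.27 (SE 0.22) for Ier3. The same pair of genes did not overlap, against 12.5% of all genes. On shared chips Fosl1 and Dusp4 were higher with ZDON in 5 of 5 pairs, as were 6.66% of all genes, and Dusp6 and Ier3 in 4 of 5. The dim probes gave 0.20 for Dusp4 and −0.05 for Dusp6 in Q111, and −0.03 and 0.14 in Q7. Without Q7 ZDON replicate 3 the Q7 difference of Ier3 was 0.46. Since Boc-DON's effect helped choose the genes, these are descriptions. Across all genes this contrast had 0% past the threshold in limma in either line, with 381 genes in Q111 and 645 in Q7 at an unadjusted p under 0.05, and 6 and 18 past it with the block. The dose of cystamine was 250 µM, so its levels stand beside those of the DON compounds as values, and no difference between them was computed.

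**Figure D2:**
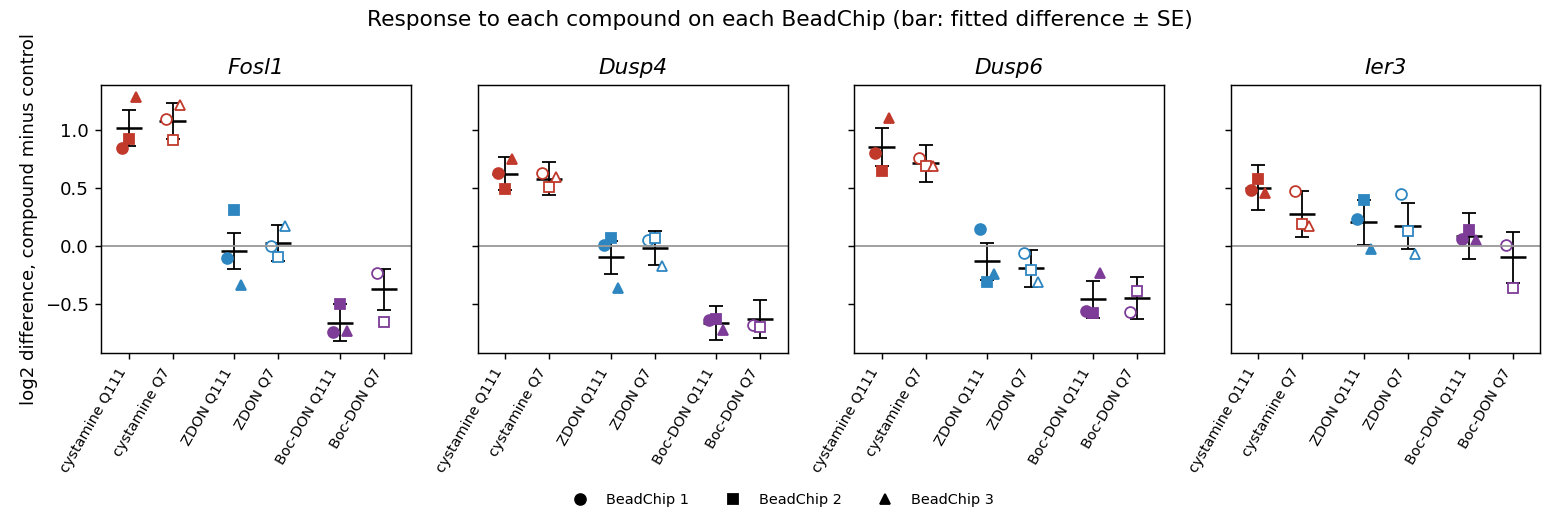
Log2 difference between compound and control (y axis) for each gene, compound and line. Points are single chip-matched array pairs (filled for Q111, open for Q7, shaped by BeadChip), and bars are the fitted difference ± SE. Cystamine pairs are all above 0, as for 5.99% of all genes. Boc-DON pairs of Fosl1, Dusp4 and Dusp6 are all below 0, as for 9.7% of all genes, and ZDON pairs lie on both sides.

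The comparison of the lines had no part in how the genes were chosen, although its control, cystamine and Boc-DON arrays did. Ier3 and Dusp4 were lower in Q111 than in Q7 on each of the 11 chip-matched pairs over the 4 arms, which held for 1.84% of genes. The pairs ranged from −0.65 to −0.16 for Ier3 and from −0.44 to −0.10 for Dusp4. The dim probe of Dusp4 did not share this, being lower in Q111 on some pairs and higher on others. Dusp6 was lower in 10 of 11 pairs and Fosl1 in 8 of 11.

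Among the ZDON arrays, none of which chose the genes, Q111 minus Q7 was −0.49 for Ier3 (SE 0.20), with −0.53, −0.39 and −0.57 on chips 1, 2 and 3. Without the replicate block Ier3 did not pass (limma, adjusted p = 0.393), and with it Ier3 passed (SE 0.099, adjusted p = 0.00662). In controls, whose arrays had a part in choosing the genes, the difference was −0.53, with −0.31, −0.65 and −0.61 on the chips. Again Ier3 passed with the block and not without it (limma, adjusted p = 0.00334 and 0.292). With chip 3 left out and no block, Ier3 stood at −0.46 among ZDON arrays and −0.48 among controls and passed in both (limma, adjusted p = 0.0248 and 0.0174), where 4.09% and 3.97% of all genes passed. The share of genes that passed among ZDON arrays was 1.21% without and 2.36% with the block, and among controls 1.55% and 3.26%. Q111 and Q7 control arrays did not overlap for Ier3 and Dusp4, a lower level in Q111 that 6.28% of genes shared.

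Dusp4 differed by −0.35 among ZDON arrays (SE 0.14) and by −0.27 among controls. It did not pass in either (limma, adjusted p = 0.419 and 0.538, and 0.0916 and 0.204 with the block). The dim probe of Dusp4 gave −0.14 (SE 0.15) among ZDON arrays and −0.03 (SE 0.15) among controls. For Dusp6 the differences were −0.21 and −0.27, and for Fosl1 −0.18 and −0.12, none of which passed without or with the block. Leaving out Q111 ZDON replicate 3 changed the ZDON values most, to −0.26 for Ier3, −0.16 for Dusp4, 0.004 for Dusp6 and 0.02 for Fosl1. Without Q7 ZDON replicate 3 they were −0.69, −0.49, −0.29 and −0.18 in the same order.

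**Figure D3:**
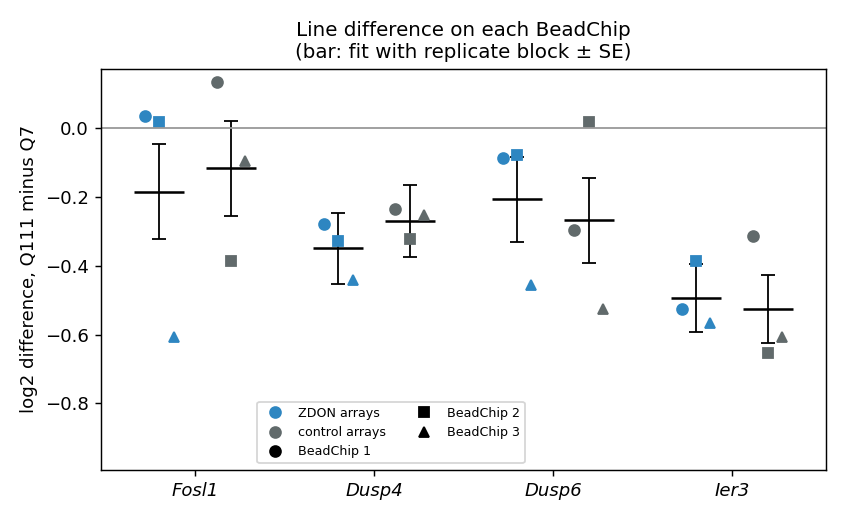
Log2 difference between Q111 and Q7 (y axis) for each gene among ZDON arrays (blue) and controls (grey). Points are chip-matched pairs shaped by BeadChip, and bars are the fit with the replicate block ± SE. The 6 Ier3 pairs lie between −0.65 and −0.31 and the 6 Dusp4 pairs between −0.44 and −0.24, all below 0.

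Across all 23 arrays Fosl1, Dusp4 and Dusp6 followed each other with Pearson correlations of 0.93 to 0.94, and Ier3 followed them at 0.62 to 0.72. These are descriptions over arrays that share chips and compound effects. With group means removed, Fosl1 correlated with Dusp4 at 0.60 and with Dusp6 at 0.45, and Dusp4 with Dusp6 at 0.66. With chip means removed as well, these were 0.68, 0.16 and 0.40. Ier3 correlated with Dusp4 at 0.82, with Dusp6 at 0.74 and with Fosl1 at 0.58 within groups, and at 0.61, 0.28 and 0.46 once chip means were removed too. The gene most like Fosl1 over the 23 arrays was Plaur (r = 0.978), which was also the most like Dusp4 (0.940), and the one most like Dusp6 was the ETS factor Etv5 (0.949). Fosl1 was followed at rank 4 by the small Maf protein gene Maff (0.932). Over the 8 group means Plaur was at 0.996 with Fosl1. Ier3 had other companions, the Wnt ligand Wnt7a (0.882) and Arhgap24 (0.858) over arrays, and the protease inhibitor Slpi (0.985) and the p38 kinase kinase Map2k3 (0.981) over group means.

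Plaur, the cell-surface receptor that focuses the protease urokinase, was singled out for its likeness to Fosl1 over these same arrays, so its differences are described without a test. In Q111 its log2 level was 11.64, 11.49 and 11.62 with cystamine, 10.99, 11.09 and 10.39 with ZDON, 10.65, 10.45 and 10.05 with Boc-DON, and 10.86, 10.85 and 10.73 in controls. Plaur in Q7 was at 11.75, 11.74 and 11.82 with cystamine, 10.91, 11.01 and 10.80 with ZDON, 10.66 and 10.46 with Boc-DON, and 10.86, 11.07 and 10.81 in controls. The cystamine arrays stood above all others and the 5 Boc-DON arrays below every control array, as for Fosl1. The difference from controls with cystamine was 0.77 in Q111 (SE 0.15) and 0.86 in Q7 (SE 0.15). With Boc-DON it was −0.43 in Q111 (SE 0.15) and −0.35 in Q7 (SE 0.17).

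The rest of the pathway was described by 7 lists that left out the 4 genes and were written with earlier results of these data known. They held 150 genes, of which 113 were measured, counting Atf5 in place of the listed Atf7. With cystamine 2 of the 113 rose and 1 fell in Q111, against 0.64% of all genes passing in either direction, and 6 rose and 1 fell with the replicate block, against 1.73%. In Q7 2 rose and none fell, against 0.406%, and 3 rose with the block, against 0.944%. The cystamine counts of each line include Plaur, which followed Fosl1 over the same arrays and adds no independent support. Those with the block also include Maff, and in Q111 Etv5, which followed Fosl1 and Dusp6 in the same way. With Boc-DON none passed in Q111 (limma), against 0.0609% of all genes, and 1 fell with the block, against 0.812%. There 18 of the 113 had an unadjusted p under 0.05 (limma), against 9.16% of all genes. In Q7 none passed without or with the block, against 0.0203% and 0.264%. Here 15 of the 113 had an unadjusted p under 0.05 (limma), against 7.54% of all genes.

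ERK-dependent transcription targets, 23 of 32 measured, leaned upward with cystamine and downward with Boc-DON. Their median difference with cystamine was 0.27 in Q111, with 21 of 23 above 0, and 0.17 in Q7, with 20 of 23 above 0, against a median of all genes of −0.01 in each. With Boc-DON it was −0.16 in Q111, with 8 of 23 above 0, and −0.19 in Q7, with 4 of 23 above 0, against 0.01 and 0.02 for all genes. Both contrasts of a line use the same controls. The list holds Plaur, Maff and Etv5, which were among the genes most like Fosl1 or Dusp6 over these arrays. It also holds Cd44 and Map2k3, among those most like Dusp4 and Ier3 over group means. Its medians and counts are therefore descriptions. With ZDON the medians were 0.01 in Q111 and −0.04 in Q7.

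With cystamine Plaur was the only target past the threshold in Q111. In Q7 Plaur and the growth factor Hbegf (0.51, SE 0.10, limma, adjusted p = 0.0129) were past it. Plaur was singled out over these same arrays, so its call is not read as a test. With the replicate block Maff (0.63, adjusted p = 0.0248), Etv5 (0.49, adjusted p = 0.0438) and the growth regulator Myc (0.50, adjusted p = 0.0467) also rose in Q111, and Maff in Q7 (0.62, adjusted p = 0.0407). Hbegf in Q111 was at 0.16 with cystamine. With Boc-DON it stood at −0.38 in Q111, where it passed with the block alone (limma, adjusted p = 0.0462, against 0.131 without), and at −0.04 in Q7. Etv5 and Myc were named after their block values were seen. Maff and Etv5 were also among the genes most like Fosl1 and Dusp6 over these arrays, so their p-values add no independent support.

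Of the other feedback inhibitors of the pathway, 9 of 15 were measured. Spry4, a Sprouty protein that dampens signalling from receptor tyrosine kinases, rose with cystamine in Q111 by 0.51 (SE 0.09, limma, adjusted p = 0.00783). In Q7 it was at 0.38 (adjusted p = 0.101, and 0.0553 with the block). All 9 were above 0 with cystamine in Q111, with a median of 0.15, and 7 of 9 in Q7, with a median of 0.16. With Boc-DON the medians were 0.004 and −0.08 and none passed.

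The kinases and adaptors of the cascade itself, 25 of 35 measured, had medians close to that of all genes. Their medians with cystamine were 0.04 in Q111 and 0.01 in Q7, and with Boc-DON −0.02 and 0.05. None passed in these contrasts without or with the block. In the same order, 2, 1, 3 and 4 of the 25 had an unadjusted p under 0.05 (limma). Of all genes, 10.2%, 7.62%, 9.16% and 7.54% did. The 17 measured of 20 components of the stress kinase cascades, JNK and p38, had medians of 0.03 and −0.09 with cystamine, and none passed either. Of these, 3 and 1 had an unadjusted p under 0.05 (limma), against 10.2% and 7.62% of all genes. This list holds Map2k3, which was among the genes most like Ier3 over group means.

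Among AP-1 and partner subunits, 14 of 17 were measured, counting Atf5 in place of the listed Atf7, a different gene. None passed with cystamine without the block. With the block Maff alone rose in each line, a gene that also followed Fosl1 over these arrays. Fos, the founding member, was at 0.38 with cystamine in Q111 and 0.11 in Q7 (limma, adjusted p = 0.457 and 0.976). Junb was at 0.34 and 0.08, Jun at 0.09 and 0.19, and Fosl2, the closest relative of Fosl1, at 0.18 and 0.01. Atf3, a stress-induced subunit, was at 0.32 and −0.08 with cystamine and at 0.63 and 0.26 with Boc-DON (adjusted p = 0.218 and 0.781). These subunits did not pass in the contrasts given, which with 3 arrays a group does not show that they stayed the same.

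Of the immediate early genes served by serum response factor and CREB, 20 of 24 were measured. None passed without the block, and Zfp36, which encodes an mRNA-destabilising protein, rose with it in Q111 (0.36, limma, adjusted p = 0.0189). Egr1, the usual immediate reporter of ERK activity, was at 0.27 with cystamine in Q111 and 0.09 in Q7. The median of the list was 0.17 with cystamine in Q111, 0.07 in Q7, and 0.01 and 0.03 with Boc-DON.

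Of the other dual-specificity phosphatases, 14 of 19 were measured, and most were below 0 with cystamine. Their medians with cystamine were −0.08 in Q111 and −0.04 in Q7, with 4 of 14 above 0 in each line. Dusp14 fell with cystamine by 0.47 in Q111 (SE 0.10, limma, adjusted p = 0.0298) and was at −0.36 in Q7 (adjusted p = 0.182). Dusp1, an early phosphatase with p38 and JNK among its substrates, was at 0.45 in Q111 and 0.19 in Q7 and did not pass (adjusted p = 0.152 and 0.836).

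**Figure D4:**
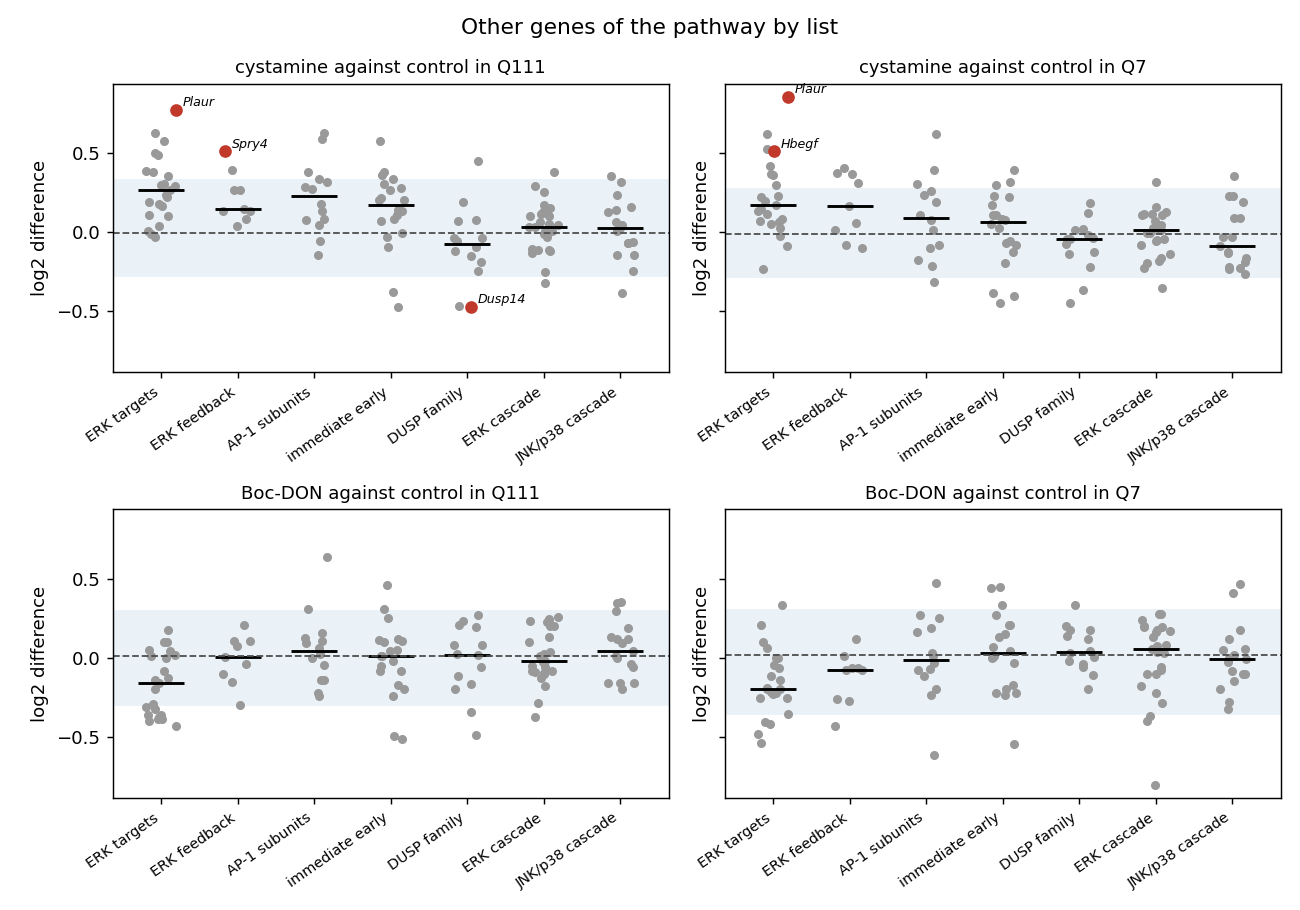
Log2 difference between compound and control (y axis) of each measured gene in 7 pathway lists, for cystamine (top) and Boc-DON (bottom) in Q111 (left) and Q7 (right). Red points passed an adjusted p of 0.05 in limma. Plaur is red with cystamine, though singled out over these same arrays, and its call is not read as a test. Black bars are list medians, the dashed line is the median of all genes and the band spans the 5th to 95th percentile of all genes. ERK targets have medians of 0.27 and 0.17 with cystamine and −0.16 and −0.19 with Boc-DON.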

How the data were processed

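The authors deposited unnormalized intensity values per probe, and the submitters' processing notes name BeadStudio, without a version. Whether these are net of a background is not stated. The log2 values deposited in the series matrix matched quantile-normalized log2 intensities to within 5e-09. 1 array column without a sample was left out. Here limma 3.58.1 in R 4.3.3 was used for normexp correction with an offset of 50, quantile normalization and log2 values. Of 24611 probes, 19852 carried 1 symbol, 4759 none and 0 several. Probes above their array's median on at least 2 arrays were kept (15049, of which 12505 had a symbol), and the kept probe with the highest mean stood for each of 9850 genes. All 23 arrays entered 1 limma model of 8 group means with 15 residual degrees of freedom, with Benjamini-Hochberg adjustment over all genes and a threshold of 0.05. Precision is limited by how many arrays there were.

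The replicate number equals the BeadChip in the labels. After group means were removed, 72 of 77 array pairs with the same number were positively correlated across genes (median 0.208), and 44 of 154 pairs with different numbers were (median −0.112), so a fit with this number as a block (13 residual degrees of freedom) is given where it changes a result. Genes are not independent replicates in this check.

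The 4 genes and the 7 lists were chosen with earlier results of these data known. Per list, up to 4 genes with the smallest adjusted p past the threshold could be named, or the 2 smallest where none passed. So could the 4 genes most correlated with each of the 4 genes over arrays or group means. Fos, Jun, Junb, Egr1, Atf3, Fosl2, Dusp1 and Spry4 were named whatever their values. Not every list has a named gene. The adjusted p meant here is that without the block, and with cystamine Zfp36, Etv5 and Myc passed only with it. Alternatives were no dim-probe filter, no background correction, median scaling, the deposited values, only the groups compared, no chip 3, each array left out, and the other probe of a gene.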

Additional observations from a re-analysis of the deposited data

How the results depend on the processing

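For each of the 4 genes in the 11 comparisons, direction held without the dim-probe filter, without background correction, with the deposited values, with the replicate block and with the groups compared alone. Median scaling turned Fosl1 with ZDON in Q111 to 0.0062 and Ier3 with Boc-DON in Q111 to −0.0026. Without chip 3, the line difference of Fosl1 under ZDON was 0.027, ZDON against control was 0.11 for Fosl1 and 0.037 for Dusp4 in Q111 and −0.048 and 0.061 in Q7, and the cystamine interaction of Dusp4 was −0.010. The other probes gave 0.10 for Dusp4 and 0.10 for Dusp6 with ZDON in Q7, −0.20 and −0.17 for their cystamine interactions, 0.053 for Dusp6 between control lines, 0.13 for Dusp4 with Boc-DON in Q7, and −0.025 for Dusp4 in Q7 and −0.047 for Dusp6 in Q111 between ZDON and Boc-DON. The cause was not tested for any of these. Ier3 between the lines passed with the block and without chip 3, in ZDON arrays and in controls, and in no other setting.

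The number of genes past the threshold, in the order line difference under ZDON, line difference in controls, ZDON in Q111 and Q7, cystamine in Q111 and Q7, Boc-DON in Q111 and Q7, cystamine interaction, ZDON against Boc-DON in Q111 and Q7, was 119, 153, 0, 2, 63, 40, 6, 2, 0, 0 and 0. With the replicate block it was 232, 321, 26, 5, 170, 93, 80, 26, 0, 6 and 18. Without chip 3 it was 403, 391, 10, 106, 223, 85, 38, 54, 7, 9 and 126. With the groups compared alone it was 60 and 89 for the lines, 1 for ZDON in Q7, 16 and 12 for cystamine, and 2 and 0 for Boc-DON. Median scaling gave 1 for ZDON in Q7, 37 and 14 for cystamine, 3 and 1 for Boc-DON, and 2 for ZDON against Boc-DON in Q111. It put 51.4% of cystamine calls in Q111 upward, against 73%, and 82% of control line calls, against 68%. Without the filter ZDON in Q7 had 1 and Boc-DON in Q111 had 3.

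The median of the ERK targets with cystamine was 0.11 in Q111 and 0.090 in Q7 with median scaling, which is 0.22 above the median of all genes in each, and 0.10 in Q7 without chip 3. With Boc-DON in Q7 it was −0.19 with the block, without background correction and with the deposited values, −0.21 with median scaling and −0.15 without chip 3. Leaving out single arrays gave 58 to 133 genes for the lines under ZDON and 73 to 159 in controls, 0 to 3 for ZDON in Q111 and 0 in Q7, 26 to 94 for cystamine in Q111 and 23 to 36 in Q7, 2 to 3 for Boc-DON in Q111 and 1 to 2 in Q7, 0 for the interaction, and 0 to 1 for ZDON against Boc-DON in each line. Values of the 4 genes that crossed 0 in this way were the line difference under ZDON of Fosl1 (−0.36 to 0.024) and Dusp6 (−0.35 to 0.0038) and that of Fosl1 in controls (−0.19 to 0.016). With ZDON against control they were Fosl1 (−0.22 to 0.17), Dusp4 (−0.20 to 0.092) and Dusp6 (−0.29 to 0.079) in Q111, and Fosl1 (−0.045 to 0.16) and Dusp4 (−0.090 to 0.12) in Q7. Interactions crossing 0 were those of Fosl1 (−0.19 to 0.011), Dusp4 (−0.012 to 0.11) and Dusp6 (−0.017 to 0.30). Ier3 also crossed 0 with Boc-DON in Q111 (−0.032 to 0.22) and Q7 (−0.17 to 0.020) and between ZDON and Boc-DON in Q111 (−0.032 to 0.35). The target medians stayed at 0.22 to 0.30 and 0.15 to 0.23 with cystamine and at −0.23 to −0.10 and −0.18 to −0.15 with Boc-DON, in Q111 and in Q7. 

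With all 23 arrays and no block, tested differences of up to 0.53 in size did not pass for these genes. Ier3 was lowest on chip 3 in every group of 3, and Q7 Boc-DON has no array on it.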
